A study of Mus musculus with 6 samples.

Results

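The genes described here are 44 genes of the endoplasmic reticulum (ER) secretory route and of the unfolded protein response. They were taken by symbol from a table of 18988 rows, and each of the 44 symbols had a row. RNA was measured in the corpus, the acid-secreting body of the stomach, in 6 C57BL/6 mice, each giving 1 library. The controls (replicates 1 to 3) carried Ras;APC FF, and the other 3 mice (replicates 4 to 6) carried PGC;Ras;APC FF, so that the Ras and APC FF alleles were common to both groups and PGC was what set them apart. What PGC and FF stand for is not spelled out in the labels, which also name no driver of a recombinase, no age, no sex and no induction scheme. The question the design poses is which RNAs differ between the corpus of PGC;Ras;APC FF mice and that of Ras;APC FF mice.

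Proteins bound for secretion enter the ER through the Sec61 channel, lose their signal peptide, receive N-linked glycans and fold with the help of chaperones and disulfide isomerases. When folding lags, the sensors IRE1, ATF6 and PERK start the unfolded protein response. IRE1 splices Xbp1 RNA and ATF6 is cut loose from its membrane anchor, and the resulting factors act mainly on chaperone and degradation genes. PERK slows translation and favours ATF4, which acts on amino acid supply and on Ddit3, the gene of CHOP. In the corpus, chief cells secrete pepsinogen in bulk and have a dense ER.

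The promoters of several of the 44 genes hold the short elements through which these factors are known to act, and the sites are shown because the genes holding them are compared further on. Promoters, from 250 bases before to 50 after the gene start, came from RefSeq (GRCm38.p6) and existed for 37 of the 44 genes. No promoter entry was used for Atf6, Hyou1, Manf, Derl1, Sec61a1, Ssr2 or Sec11c. Each element was searched on both strands. The ER stress response element (ERSE), the letters CCAAT and CCACG with 9 bases of any kind between them, occurred in 37 of 27025 genes with a promoter (0.137%) and in 8 of the 37 genes described here (21.6%). Capitals mark the fixed letters of the element in each site, written 5′ to 3′ on the stated strand with 5 flanking bases on each side.
Hspa5, chr2:34772020-34772048, plus strand: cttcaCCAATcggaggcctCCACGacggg
Hsp90b1, chr10:86705633-86705661, minus strand: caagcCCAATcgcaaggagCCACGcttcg
Hsp90b1, chr10:86705528-86705556, plus strand: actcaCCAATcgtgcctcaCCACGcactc
Calr, chr8:84847070-84847098, plus strand: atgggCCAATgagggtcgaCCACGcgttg
Canx, chr11:50325795-50325823, minus strand: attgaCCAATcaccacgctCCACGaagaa
Pdia6, chr12:17266486-17266514, plus strand: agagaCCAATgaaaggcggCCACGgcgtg
Dnajc3, chr14:118937822-118937850, plus strand: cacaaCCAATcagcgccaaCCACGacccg
Creld2, chr15:88819515-88819543, minus strand: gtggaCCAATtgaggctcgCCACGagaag
Syvn1, chr19:6046527-6046555, plus strand: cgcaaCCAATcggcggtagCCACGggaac

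A related element, ERSE-II, the letters ATTGG and CCACG with 1 base between them, shares the letters CCACG with ERSE and holds the reverse complement of its CCAAT. It occurred in 12 genes (0.0444%), among them Herpud1 and Dnajb11. The element of ATF4 and its partners (CARE, the letters TGATG and AA with 1 base between them) occurred in 1219 genes (4.51%), among them 4 of the genes described here. The core of the element that XBP1 is known to bind (TGACGTGG) occurred in 193 genes (0.714%) and in 0 of the 37. A match describes these letters only, and their absence from this window says nothing about a factor.
Herpud1 ERSE-II, chr8:94386372-94386392, plus strand: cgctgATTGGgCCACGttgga
Dnajb11 ERSE-II, chr16:22857847-22857867, plus strand: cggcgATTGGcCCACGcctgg
Chac1 CARE, chr2:119351044-119351061, minus strand: aggagTGATGcAAcggca
Trib3 CARE, chr2:152344034-152344051, plus strand: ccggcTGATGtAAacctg
Asns CARE, chr6:7693220-7693237, minus strand: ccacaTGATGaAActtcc
Herpud1 CARE, chr8:94386312-94386329, minus strand: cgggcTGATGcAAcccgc

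Levels are in FPKM, read fragments counted per length of gene and per size of library, so that levels can be set side by side between genes. Summed FPKM lay between 664821 and 804774, and the number of reads is unknown. The markers matched the labelled tissue, with Pgc, Atp4b of parietal cells and Muc5ac of pit cells high in every library. Pgc, Clps and Pla2g1b together took 34.9% to 48.1% of summed FPKM in the controls, 32.7% and 31.7% in replicates 4 and 5 and 6.36% in replicate 6. Replicate 6 also stood apart in its correlation with the controls across genes (r of 0.904 to 0.909, against 0.965 to 0.981 for replicates 4 and 5). Control replicate 3 carried Y-linked RNA and no Xist, unlike the other 5 libraries. Many results are given with and without replicate 6. Where no value without it is given, the result includes replicate 6.

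Levels of most folding, translocation and glycosylation genes stood higher in PGC;Ras;APC FF corpus than in control corpus, while in 3 of the 5 stress sensors and factors and in all 3 targets of ATF4 and CHOP among the 44 (Trib3, Asns and Chac1) the groups overlapped. Of 25 other targets of ATF4, given further on, 11 had every PGC;Ras;APC FF library above the controls and 12 overlapped. Among all tested genes 42.7% lay above in that way. The 44 genes took 0.456%, 0.459% and 0.454% of summed FPKM in the controls and 0.650%, 0.600% and 0.808% in replicates 4, 5 and 6. Of the FPKM left without Pgc, Clps and Pla2g1b, whose share was smaller in replicates 4 to 6, they took 0.879%, 0.818% and 0.698% in the controls and 0.965%, 0.878% and 0.863% in replicates 4 to 6, and there the groups overlapped. The 3 PGC;Ras;APC FF libraries all lay above the 3 controls in 29 of the 44 genes (65.9%), beside 42.7% of all tested genes. They all lay below the controls in 1 gene, Ddit3 (5.47% of all tested genes), and in 14 genes the groups overlapped. By role, the PGC;Ras;APC FF libraries were all higher in 11 of 11 chaperones, 4 of 5 disulfide isomerases, 3 of 6 degradation genes, 5 of 9 translocation genes, 5 of 5 genes of signal peptidase and oligosaccharyltransferase, 1 of 5 sensors and factors and 0 of 3 targets of ATF4 and CHOP. Whether the role groups differ from each other was not tested.

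With limma on log2(FPKM + 1) over 11857 tested genes, 0 of the 44 genes passed a Benjamini-Hochberg adjusted p of 0.05 in either direction, against 0.110% of all tested genes higher and 0.0422% lower. The lowest adjusted p was 0.085, shared by 15 of the 44 genes. An unadjusted p under 0.05 was reached by 29 genes (65.9%), all higher, where 31.8% of all tested genes were higher and 3.63% lower at that level. The median log2 change was 0.55 over the 44 genes and 0.26 over all tested genes. Without replicate 6, 15 of the 44 genes rose (34.1%, beside 7.17% of all tested genes) and 0 fell (0.914%). Without replicate 5, 6 genes rose (13.6%, beside 3.54%), namely Ssr2, Pdia6, Dnajb11, Pdia4, Hyou1 and Ssr1, and 0 fell (0.386%). None of the 44 passed without replicate 4, where 0.0172% of all tested genes were called higher and 0.0259% lower, or without any 1 of the controls, where 0 genes in all were called. The unadjusted higher count of 29 ran from 19 to 31 over these 6 omissions, beside 30.0%, 34.1% and 27.7% of all tested genes without replicates 4, 5 and 6 and 16.9%, 19.1% and 24.1% without controls 1, 2 and 3. When libraries were weighted by their agreement with their group (limma array weights), 31 genes rose (70.5%, beside 29.7%) and 0 fell (3.11%), and 1 was lower at an unadjusted p under 0.05 (4.90%). The estimation of these weights did not converge, and replicate 6 had a weight of 0.133.

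**Figure D1:**
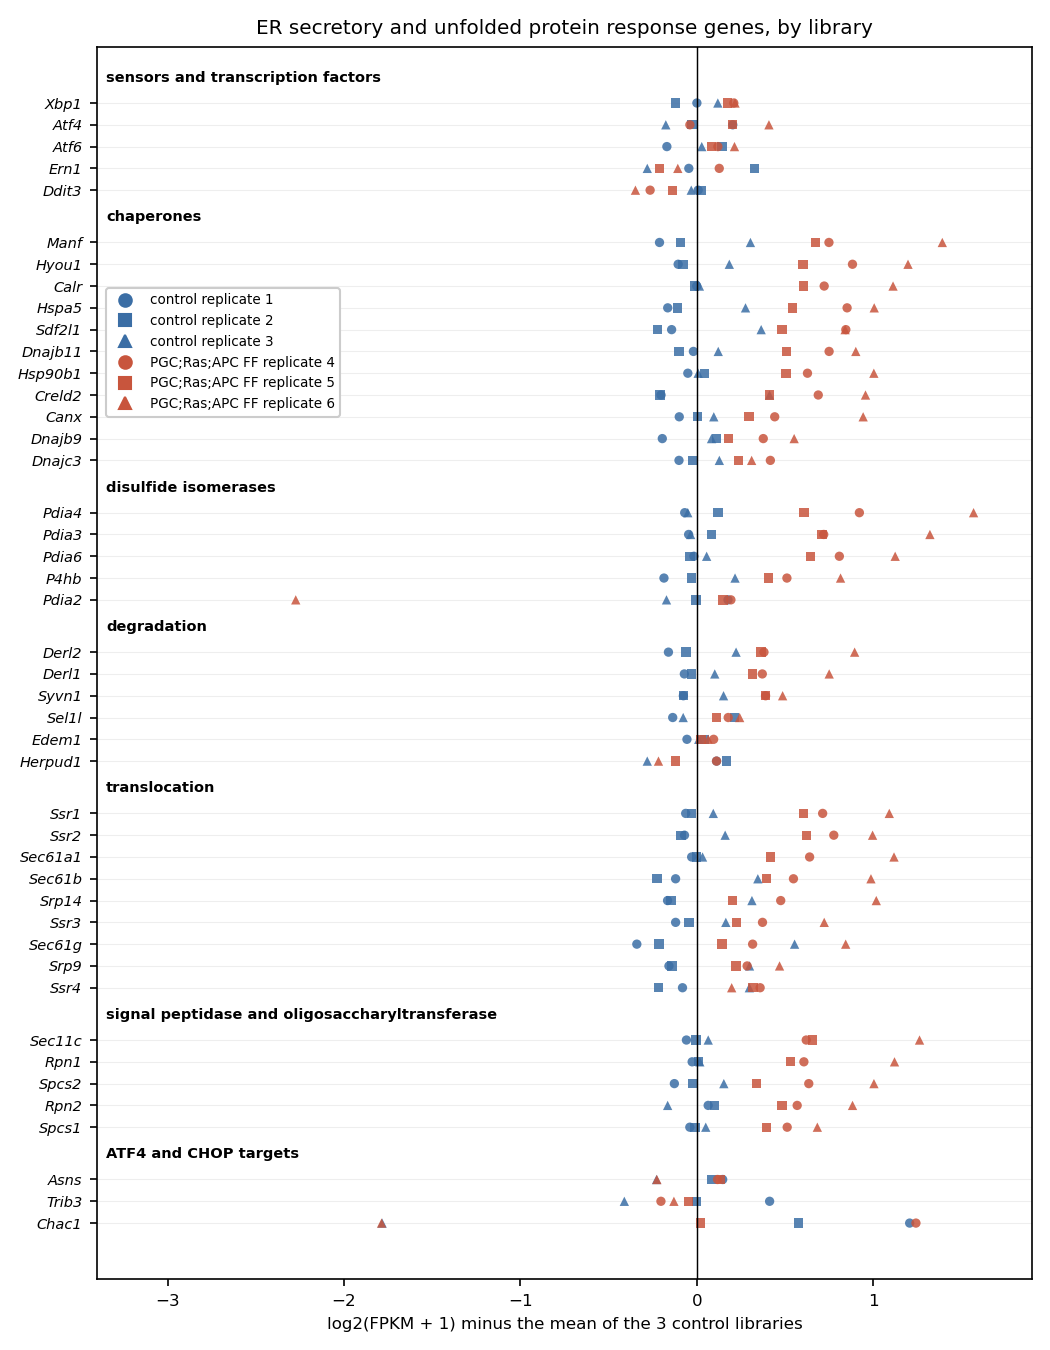
The horizontal axis gives log2(FPKM + 1) of each library minus the mean of the 3 controls, for the 44 genes by role; blue symbols are the control libraries and red symbols the PGC;Ras;APC FF libraries. Red symbols sit to the right of all blue ones in 29 genes, among them all 11 chaperones, and replicate 6 of Pdia2 lies far to the left.

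Part of the general upward shift depended on scaling. Median-of-ratios scaling, which sets the typical gene equal between libraries, lowered the median of all tested genes from 0.26 to about 0 on the log2 scale and that of the 44 genes to 0.26. On that scale 20 of the 44 genes (45.5%) still had every PGC;Ras;APC FF library above every control, beside 18.0% of all tested genes, and 16 (36.4%) had an unadjusted p under 0.05 in the higher direction, beside 13.2%. Every PGC;Ras;APC FF library was below the controls in 2 genes, Ddit3 and Edem1 (16.7% of all tested genes), and 1 gene, Ddit3, was lower at an unadjusted p under 0.05 (11.5%). Quantile normalization gave 15 higher and 1 lower at that level, beside 12.4% and 13.0%, and scaling to the total without the 50 most abundant rows gave 15 and 1, beside 9.94% and 13.7%. None of the 44 passed the adjusted threshold under these 3 scalings, beside 0.0759% higher and 0.0843% lower in all, 0.0843% and 0.110%, and 0.101% and 0.0843%. Changes below are on the scale of the deposited FPKM unless the rescaled value is named.

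Among the sensors and transcription factors the differences were small. Xbp1 (chr11:5520659-5525893), whose spliced RNA encodes a factor of chaperone and secretory genes, was at 180, 166 and 196 FPKM in the controls, against 208, 203 and 209 FPKM in replicates 4 to 6. The groups did not overlap, with a narrow gap between control replicate 3 and replicate 5. Its log2 difference was 0.20 ± 0.14 (SE; limma adjusted p = 0.315) and -0.11 after median-of-ratios scaling. Gene-level FPKM do not separate spliced from unspliced Xbp1 RNA.

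Ddit3, the gene of the stress factor CHOP, was at 9.12, 9.24 and 8.85 FPKM in the controls, against 7.38, 8.14 and 6.91 FPKM in replicates 4 to 6. The controls were close together and replicates 4 to 6 were all below them, a direction opposite to that of the chaperones. The log2 difference was -0.25 ± 0.12 (limma adjusted p = 0.170) and -0.53 after rescaling (adjusted p = 0.113, unadjusted p = 0.00786). Ern1, which encodes the sensor IRE1, and Atf6, the membrane-bound sensor and factor, overlapped between the groups, with differences of -0.06 and 0.14. Atf4, a factor controlled mainly through its translation, ran from 81.0 to 106 FPKM in the controls and from 89.1 to 122 FPKM in PGC;Ras;APC FF mice, also overlapping.

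**Figure D2:**
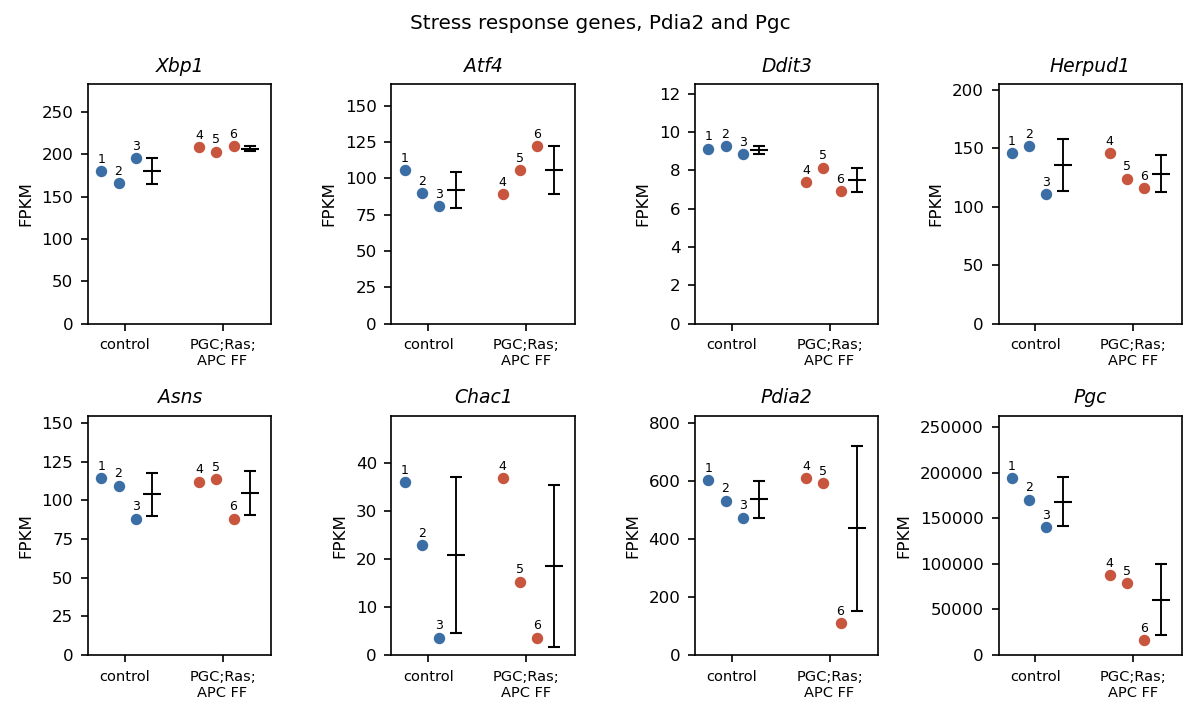
Each panel gives FPKM of 1 gene per library (points with replicate numbers, blue for control and red for PGC;Ras;APC FF) with the group mean and SD (bar at the right of the points, n = 3). Ddit3 lies lower in all 3 PGC;Ras;APC FF libraries, Chac1 spans a wide range in both groups, and Pdia2 and Pgc are lowest in replicate 6.

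All 11 chaperones and co-chaperones had every PGC;Ras;APC FF library above every control, with log2 differences of 0.32 to 0.94 and limma adjusted p-values of 0.085 to 0.132. Hspa5 (chr2:34771970-34777547), the gene of BiP, the main Hsp70 chaperone of the ER, is named after its values were seen. It was at 141, 147 and 192 FPKM in the controls, against 287, 231 and 319 FPKM in replicates 4 to 6. Control replicate 3 was the highest control and still lay below replicate 5. The log2 difference was 0.80 ± 0.19 (limma adjusted p = 0.085), 0.49 after rescaling, and 0.70 without replicate 6 (adjusted p = 0.0521).

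Manf (chr9:106838312-106891979), a secreted BiP-binding factor, showed the largest difference among the chaperones with all libraries, while Hyou1 was first without replicate 6 and under array weights. Its levels were 33.7, 36.7 and 48.6 FPKM in the controls and 66.5, 62.9 and 104 FPKM in replicates 4 to 6. Replicate 6 was the highest library by a wide margin, and the other 2 PGC;Ras;APC FF libraries also lay above all controls. The log2 difference was 0.94 ± 0.23, and without replicate 6 Manf rose by 0.71 (limma adjusted p = 0.0440).

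Hyou1, the Hsp110-type partner that exchanges nucleotide on BiP, was at 21.1, 21.6 and 26.1 FPKM in the controls, against 42.9, 35.2 and 53.6 FPKM in replicates 4 to 6. Its log2 difference was 0.89 ± 0.18, and without replicate 6 it rose by 0.74 (limma adjusted p = 0.0341). Dnajb11, a J-domain co-chaperone of BiP, was at 34.7, 32.7 and 38.4 FPKM and at 59.8, 50.5 and 66.6 FPKM, and rose by 0.63 without replicate 6 (limma adjusted p = 0.0367). In both genes the lowest PGC;Ras;APC FF library was replicate 5.

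Calr (chr8:84841850-84846934), the lectin chaperone calreticulin, was the most abundant of the chaperones. Its levels were 299, 297 and 303 FPKM in the controls and 495, 456 and 649 FPKM in replicates 4 to 6. The 3 controls were nearly equal, so that the gap to the PGC;Ras;APC FF libraries was much wider than the control spread. The log2 difference was 0.81 ± 0.19, and without replicate 6 Calr rose by 0.66 (limma adjusted p = 0.0341). Hsp90b1, the ER form of Hsp90, was at 135, 144 and 141 FPKM and at 217, 199 and 281 FPKM, and rose by 0.57 without replicate 6 (limma adjusted p = 0.0388). The lectin chaperone Canx, the co-chaperones Dnajb9, Dnajc3 and Sdf2l1 and the stress-inducible Creld2 had differences of 0.32 to 0.72. Of the 11 chaperones, 7 kept every PGC;Ras;APC FF library above every control after rescaling; Dnajb9, Dnajc3, Sdf2l1 and Creld2 overlapped on that scale, and Dnajc3 turned slightly negative under the 2 other scalings.

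**Figure D3:**
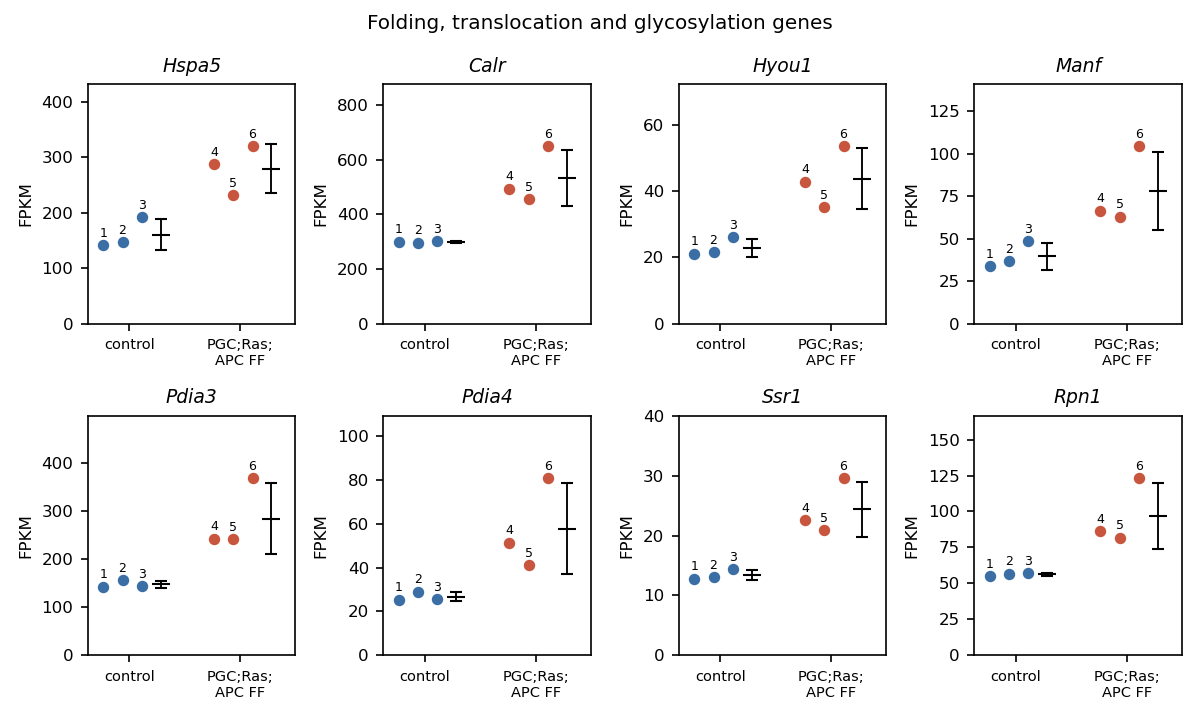
Each panel gives FPKM of 1 gene per library (points with replicate numbers, blue for control and red for PGC;Ras;APC FF) with the group mean and SD (bar at the right of the points, n = 3). In all 8 genes the 3 red points lie above the 3 blue ones, and replicate 6 is the highest.

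Of the 5 disulfide isomerases, 4 were higher in every PGC;Ras;APC FF library, also after rescaling. Pdia4 (chr6:47796141-47813430), an isomerase with several thioredoxin-like domains, had the largest difference of the 44 genes with all libraries and without replicate 6, and Hyou1 was ahead of it under array weights. It was at 25.3, 29.0 and 25.7 FPKM in the controls, against 51.3, 41.1 and 81.0 FPKM in replicates 4 to 6. Replicate 6 stood well above replicates 4 and 5. The log2 difference was 1.03 ± 0.24 (limma adjusted p = 0.085), 0.73 after rescaling, and without replicate 6 Pdia4 rose by 0.76 (adjusted p = 0.0328).

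Pdia3 (chr2:121413775-121438687), the isomerase that works with calreticulin and calnexin on glycoproteins, was at 142, 156 and 144 FPKM in the controls, against 243, 241 and 369 FPKM in replicates 4 to 6. Without replicate 6 it rose by 0.71 (limma adjusted p = 0.0324). Pdia6 was at 68.8, 67.7 and 72.3 FPKM and at 123, 109 and 153 FPKM, and rose by 0.73 without replicate 6 (limma adjusted p = 0.0324). P4hb, which is also a subunit of prolyl hydroxylase, ran from 262 to 347 FPKM in the controls and from 395 to 526 FPKM in PGC;Ras;APC FF mice.

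Pdia2 (chr17:26195999-26199087), a disulfide isomerase known from the pancreas, had the highest mean level of the isomerases in the controls and did not share this pattern. In replicate 6 P4hb, Pdia3 and Pdia6 were above it. Its levels were 605, 533 and 475 FPKM in the controls and 612, 593 and 109.8 FPKM in replicates 4 to 6. Replicates 4 and 5 lay within or just above the control range and replicate 6 far below it. The log2 difference was -0.64 ± 0.61 (limma adjusted p = 0.441) and turned to 0.17 without replicate 6. As a value chosen after it was seen, the ratio of Pdia2 to Pgc was 0.00311, 0.00313 and 0.00338 in the controls and 0.00699, 0.00752 and 0.00684 in replicates 4 to 6. The PGC;Ras;APC FF libraries were close together in that ratio, and Pgc was also lowest in replicate 6, at 16059 FPKM.

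The degradation genes were divided. The derlins are membrane proteins of the export channel for misfolded proteins. Derl1 and Derl2 were higher in every PGC;Ras;APC FF library. A further derlin, Derl3, belongs to the wider list given further on, and its groups overlapped. The log2 difference of Derl3 was -0.30, -0.58 after rescaling and 0.11 without replicate 6. Derl1 was at 21.4, 22.01 and 24.2 FPKM in the controls, against 29.4, 28.3 and 38.5 FPKM in replicates 4 to 6, a log2 difference of 0.48 ± 0.15 (limma adjusted p = 0.0954). Derl2 was at 7.54, 8.15 and 10.1 FPKM and at 11.4, 11.3 and 16.8 FPKM, a difference of 0.55 ± 0.19 (limma adjusted p = 0.101). The ubiquitin ligase gene Syvn1 (HRD1) shared this pattern, with a difference of 0.42. After rescaling the differences were 0.18 in Derl1, 0.26 in Derl2 and 0.12 in Syvn1, and the groups stayed apart in Derl1 alone of the 6 degradation genes in the higher direction.

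Herpud1, a stress-inducible partner of that ligase, was the most abundant degradation gene and did not. It was at 146, 152 and 111 FPKM in the controls, against 146, 124 and 116 FPKM in replicates 4 to 6. The groups overlapped throughout, and the log2 difference was -0.08 ± 0.18 (limma adjusted p = 0.761). Sel1l, the adaptor of the ligase, and Edem1, which marks glycoproteins for disposal, also overlapped, with differences of 0.18 and 0.06. After rescaling, all 3 PGC;Ras;APC FF libraries were below the controls in Edem1, at a log2 difference of -0.23.

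All 9 translocation genes had positive differences, of 0.29 to 0.80, as did 9558 of the 11857 tested genes. In 5 of the 9 every PGC;Ras;APC FF library lay above the controls, beside 42.7% of all tested genes. After rescaling this held for 3 of the 9, beside 18.0%, and Ssr4 turned slightly negative, at -0.02. Ssr1 (chr13:37966605-37994217), a subunit of the translocon-associated TRAP complex, was at 12.8, 13.1 and 14.4 FPKM in the controls, against 22.6, 20.9 and 29.7 FPKM in replicates 4 to 6. Ssr2, another TRAP subunit, was at 103, 102 and 122 FPKM and at 187, 168 and 218 FPKM. Both showed control libraries close together and every PGC;Ras;APC FF library higher, and without replicate 6 they rose by 0.66 and 0.70 (limma adjusted p = 0.0324 and 0.0341).

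Sec61a1, the pore subunit of the Sec61 channel, was at 48.4, 49.3 and 50.6 FPKM in the controls, against 77.6, 66.3 and 108 FPKM in replicates 4 to 6. Without replicate 6 it rose by 0.53 (limma adjusted p = 0.0416). Ssr4 was the most abundant TRAP subunit, at 158, 144 and 206 FPKM in the controls, against 215, 209 and 192 FPKM in replicates 4 to 6. Here the groups overlapped, because control replicate 3 lay above replicate 6.

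Control replicate 3 was also the highest control in Sec61g, Srp9 and Srp14, of which the last 2 encode subunits of the signal recognition particle. The level in control replicate 3 over the mean of control replicates 1 and 2 was 1.80 in Sec61g, 1.37 in Srp9, 1.39 in Srp14 and 1.36 in Ssr4. Over all tested genes the median of that ratio was 1.23 for principal transcripts under 1000 bases, 1.06 for those of 1000 to 3000 bases and 0.969 for those of 3000 bases or more. Length was that of the longest transcript tagged as principal, so a gene that also has shorter transcripts can stand in a longer class. By that length Srp14 (798 bases) and Ssr4 (765 bases) belong to the first class and Srp9 (1367 bases) and Sec61g (1862 bases) to the second. Also in the first class were Sec61b (564 bases, ratio 1.44), Sec11c (860 bases, 1.07) and Spcs1 (702 bases, 1.05). In these the groups did not overlap on the FPKM scale. The part of transcript length in the overlaps of Sec61g, Srp9, Srp14 and Ssr4 was not tested.

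The 5 listed genes of signal peptidase and oligosaccharyltransferase were the most even group, higher in every PGC;Ras;APC FF library on the FPKM scale and after rescaling. Other subunits, in the wider list given further on, were less even. Tusc3, Magt1 and Tmem258 overlapped between the groups, with log2 differences of -0.13, 0.06 and 0.60. Ddost, Sec11a, Stt3a, Stt3b, Dad1, Ostc, Krtcap2, Ost4 and Spcs3 were higher in every PGC;Ras;APC FF library. After rescaling Spcs3 was at -0.12. Sec11c, a catalytic subunit of signal peptidase, was at 65.3, 67.8 and 71.2 FPKM in the controls, against 105, 108 and 165 FPKM in replicates 4 to 6. Its log2 difference was 0.85 ± 0.19, and without replicate 6 it rose by 0.64 (limma adjusted p = 0.0325). Spcs1, an accessory subunit, was at 61.4, 62.6 and 65.4 FPKM and at 90.4, 83.3 and 102 FPKM, and rose by 0.45 without replicate 6 (limma adjusted p = 0.0470). Spcs2 had a difference of 0.66.

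Rpn1 (chr6:88084482-88105304), a ribophorin of the complex that transfers glycans, was at 55.1, 56.6 and 56.9 FPKM in the controls, against 86.1, 81.7 and 123 FPKM in replicates 4 to 6. Rpn2, its partner, was at 91.9, 94.3 and 78.2 FPKM and at 131, 123 and 163 FPKM. Control and PGC;Ras;APC FF libraries were well apart in both. Without replicate 6, Rpn1 rose by 0.57 and Rpn2 by 0.53 (limma adjusted p = 0.0341 and 0.0481).

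The 3 targets of ATF4 and CHOP overlapped between the groups. Asns, which makes asparagine, was at 115, 110 and 88.1 FPKM in the controls, against 112, 114 and 88.2 FPKM in replicates 4 to 6, a log2 difference of 0.01 ± 0.17 (limma adjusted p = 0.971). Trib3, a pseudokinase that binds stress factors, was at 3.69, 2.52 and 1.65 FPKM and at 2.06, 2.41 and 2.22 FPKM. Chac1 (chr2:119351229-119354381), which breaks down glutathione, was at 35.9, 22.9 and 3.64 FPKM and at 36.8, 15.2 and 3.63 FPKM.

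Chac1 thus ran over a wide range within each group, and its log2 difference of -0.17 ± 0.92 sets no direction (limma adjusted p = 0.894). Without replicate 6 that difference was 0.63. With 3 mice per group, differences of the size seen in the chaperones could not be resolved in Chac1.

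**Figure D4:**
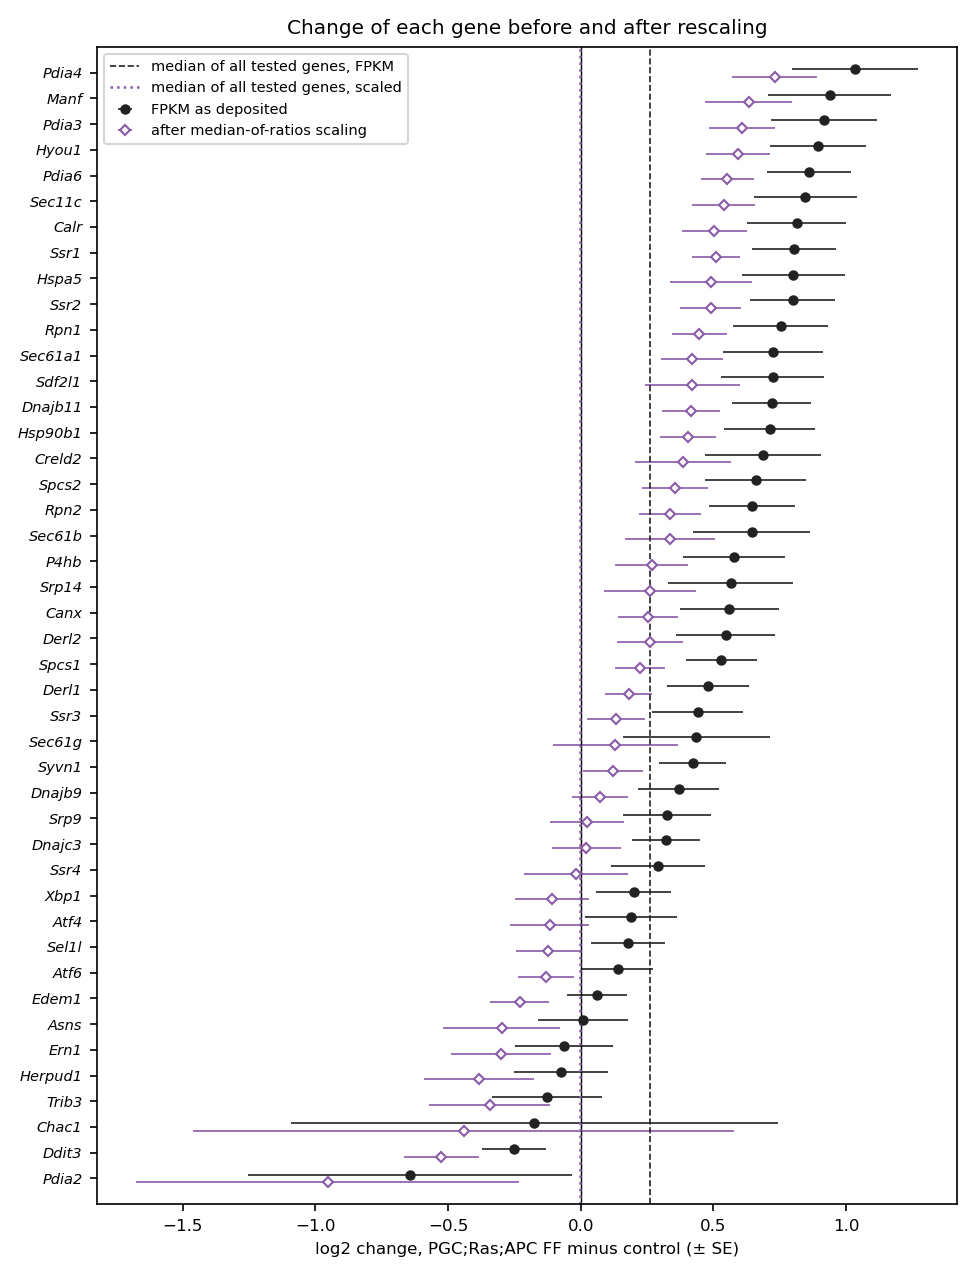
The horizontal axis gives the log2 change (PGC;Ras;APC FF minus control, ± SE) of the 44 genes, as deposited (filled circles) and after median-of-ratios scaling (open diamonds), with dashed and dotted lines at the median of all tested genes. Pdia4, Manf and Pdia3 lead on both scales, and Xbp1, Atf4, Sel1l, Atf6, Edem1, Ssr4 and Asns move from above 0 to below it.

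Ratios within a library do not depend on scaling by a common factor for all genes of that library, but quantile normalization can change them. The genes of these ratios were chosen after their values were seen, mostly to set a gene that stood higher beside one that differed less or stood lower. Xbp1, in 1 of the ratios, was itself slightly higher in every PGC;Ras;APC FF library on the FPKM scale. The ratios therefore describe and support nothing. The ratio of Hspa5 to Ddit3 was 15.5, 15.9 and 21.7 in the controls and 38.9, 28.4 and 46.2 in replicates 4 to 6. The ratio of Hspa5 to Xbp1 was 0.784, 0.885 and 0.982 in the controls and 1.38, 1.14 and 1.52 in replicates 4 to 6, and that of Pdia3 to Edem1 was 9.91, 10.1 and 9.50 and then 15.1, 15.8 and 23.5. Between a pair of chaperones, Hspa5 and Hsp90b1, the ratio was 1.05, 1.02 and 1.37 in the controls and 1.32, 1.16 and 1.13 in replicates 4 to 6, and the groups overlapped.

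The genes whose promoters hold ERSE, shown above, were among those with higher levels. In all 8, every PGC;Ras;APC FF library lay above every control, with a median log2 difference of 0.70, while this held for 15 of the 29 genes with a promoter and no match (51.7%), whose median was 0.43, and for 42.7% of all tested genes. After rescaling it held for 5 of the 8, with a median of 0.39, and for 9 of the 29, with a median of 0.13, beside 18.0% of all tested genes. Outside the 44 genes, 8 other tested genes held the element, and 2 of them had every PGC;Ras;APC FF library above the controls (0 after rescaling), with a median of 0.08. Of the CARE-bearing genes Chac1, Trib3, Asns and Herpud1, all overlapped between the groups. The ERSE genes Hspa5, Hsp90b1, Calr, Canx, Dnajc3 and Creld2 are also chaperones, a role in which all 11 genes lay above the controls on the FPKM scale. Among these 11, Dnajb9, Dnajb11 and Sdf2l1 had a promoter and no ERSE match. The counts above are over genes known to share function, and the part of the elements was not tested.

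A wider list of 164 other genes of the same route, of which 157 were tested, showed a smaller difference, with a median log2 change of 0.36 (0.06 after rescaling) and 0 genes past the limma threshold. At an unadjusted p under 0.05 there were 85 higher and 2 lower, beside 31.8% and 3.63% of all tested genes. After rescaling there were 30 higher and 6 lower, beside 13.2% and 11.5%. Without replicate 6, 25 of 155 tested genes rose and 0 fell, beside 7.17% and 0.914%. The transport receptor gene Tmed9 was at 59.4, 56.8 and 61.2 FPKM in the controls, against 94.1, 88.5 and 123 FPKM in replicates 4 to 6, and Mogs, which trims the first glucose from glycans, was at 18.6, 17.0 and 17.7 FPKM and at 31.1, 31.6 and 45.3 FPKM. Both lay apart between the groups and rose without replicate 6, by 0.62 and 0.79 (limma adjusted p = 0.0329 and 0.0296).

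The largest difference in the wider list with all libraries belonged to Cebpb, a C/EBP factor that partners ATF4; without replicate 6 Pycr1 and Mogs were ahead of it. It was at 12.6, 11.2 and 14.3 FPKM in the controls, against 21.8, 22.2 and 60.0 FPKM in replicates 4 to 6, with replicate 6 far above the rest. It rose by 0.75 without replicate 6 (limma adjusted p = 0.0324). Without replicate 6 Pdia5, Erlin1, Alg8 and Kdelr1 also rose, by 0.75, 0.57, 0.64 and 0.51. Vcp and Ostc lay higher in every PGC;Ras;APC FF library and did not pass, with log2 differences of 0.54 and 0.83. Without replicate 6 these were 0.40 and 0.60.

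Targets of ATF4 in the wider list differed among themselves. Of 25 tested, 11 had every PGC;Ras;APC FF library above the controls, 2 had every one below and 12 overlapped. Among all tested genes 42.7% lay above and 5.47% below. The median log2 change was 0.37, beside 0.26 over all tested genes. After rescaling it was 0.06, with 6 above and 3 below, beside 18.0% and 16.7% of all tested genes. Wars, the tryptophanyl-tRNA synthetase, was at 40.0, 42.3 and 38.6 FPKM in the controls, against 64.7, 68.6 and 144 FPKM in replicates 4 to 6, and rose by 0.71 without replicate 6 (limma adjusted p = 0.0324). Pycr1, an enzyme of proline synthesis, was at 4.18, 3.91 and 2.58 FPKM in the controls, against 10.1, 5.40 and 7.42 FPKM in replicates 4 to 6. Both lay apart between the groups, with log2 differences of 1.08 and 0.90, and Pycr1 did not pass (limma adjusted p = 0.0628 without replicate 6).

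As values chosen after they were seen, the targets Ddit4, Gdf15 and Stc2 also lay higher in every PGC;Ras;APC FF library, with log2 differences of 0.82, 0.79 and 0.51, and Gpt2 and Vldlr lay lower, at -0.67 and -0.37. Without replicate 6 the differences were 0.56 in Ddit4, 0.43 in Stc2, -0.33 in Gpt2 and -0.33 in Vldlr. Among other sensors and regulators, 6 of 20 had every PGC;Ras;APC FF library higher, beside 42.7% of all tested genes. After rescaling 1 of 20 did, beside 18.0%. Bbc3, a death gene known to respond to CHOP, was among the 6 on the FPKM scale, at 0.68 (0.41 without replicate 6). None of these passed the limma threshold with or without replicate 6, apart from Cebpb without it, and Gdf15 was not tested without replicate 6.

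Marker levels of several cell types also stood apart between the groups, and since the tissue was measured in bulk, more or fewer cells of a type and more or less RNA per cell cannot be told apart. None of the marker genes listed here passed the limma threshold with all libraries. Summed FPKM of 9 plasma cell and B lineage markers were 69.2, 87.1 and 89.1 in the controls and 204, 131 and 358 in replicates 4 to 6. Without Sdc1, the most abundant, they were 35.85, 46.02 and 44.84 and then 125.1, 63.63 and 182.6. In 6 of the 9 every PGC;Ras;APC FF library was higher, beside 42.7% of all tested genes. Among the 6 were Jchain (18.8 to 30.2 FPKM, then 93.9, 44.9 and 155), Mzb1 (0.70 to 1.39, then 3.97, 1.59 and 10.1) and Cd79a (0.71 to 1.02, then 4.06, 1.88 and 5.47). Derl3 overlapped between the groups and was lowest in replicate 6, at 6.14 FPKM. Tnfrsf17 and Irf4, 2 of the 9, stayed under 1 FPKM throughout. Leukocyte markers summed to 43.96 to 97.5 FPKM in the controls and to 119, 55.9 and 189 FPKM in replicates 4 to 6.

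Mucous neck markers summed to 2530 to 3611 FPKM in the controls and to 4731, 5327 and 13400 FPKM in replicates 4 to 6, and without Tff2, the most abundant, to 582 to 617 and then 1163, 1628 and 2492. Smooth muscle markers summed to 2722, 2321 and 4132 FPKM in the controls and to 1537, 1350 and 1052 FPKM in replicates 4 to 6, with all 8 genes lower in every PGC;Ras;APC FF library. Parietal markers summed to 7659, 7598 and 6673 FPKM and to 5097, 6431 and 1256 FPKM, with 4 of 8 genes lower in every one. Among all tested genes 5.47% were lower in every PGC;Ras;APC FF library on the FPKM scale. The sums of these 3 lists did not overlap between the groups. Surface pit markers summed to 79830, 98320 and 154400 FPKM in the controls and to 117200, 112700 and 113100 FPKM in replicates 4 to 6, and overlapped. Of the 5 pit genes, 0 were higher and 0 lower in every PGC;Ras;APC FF library, beside 42.7% and 5.47% of all tested genes.

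Chief cell markers summed to 155900 to 206700 FPKM in the controls and to 106300, 95010 and 22170 FPKM in replicates 4 to 6, and most of that sum is Pgc. Without Pgc they summed to 12450, 8657 and 15590 FPKM in the controls and to 18810, 16260 and 6111 FPKM in replicates 4 to 6, so that replicates 4 and 5 lay above the controls and replicate 6 below. Single genes of the list differed. Gkn3 was at 84.3 to 100.1 FPKM in the controls, against 152, 459 and 2267 FPKM in replicates 4 to 6. Those 2267 FPKM are part of the 6111 FPKM of replicate 6 without Pgc. Whether Gkn3 RNA came from chief cells here was not tested. Pga5 was also higher in every PGC;Ras;APC FF library. Bhlha15, the factor of the secretory cell program, was at 12.1 to 17.6 FPKM in the controls, against 19.5, 15.2 and 5.31 FPKM in replicates 4 to 6.

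Pancreatic acinar markers, 20 in all, summed to 319 to 418 FPKM in the controls and to 346, 317 and 162 FPKM in replicates 4 to 6. Of these, 9 were tested, with Try4 the most abundant, and 7 stayed under 1 FPKM in every library, Cpa1 and Prss2 among them. Of the 20, 1 was higher and 3 were lower in every PGC;Ras;APC FF library, beside 42.7% and 5.47% of all tested genes. The part of cell composition in the differences of the ER genes was not tested.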

How the data were processed

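RNA-seq libraries of mouse stomach corpus, 3 per genotype, were compared. The deposited values are FPKM, computed by the authors. STAR and featureCounts were used with build mm10, per the submitters' processing notes. Tool versions, the annotation and the route to FPKM were likewise not given in the sources used here. Depth is unknown, so no counting interval is given.

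FPKM are not counts. They were tested as log2(FPKM + 1), which understates changes of low genes, in rows that reached 1 FPKM in 3 or more of the 6 libraries. limma 3.58.1 (R 4.3.3, eBayes with trend, two-sided) was fitted with genotype as its term, with Benjamini-Hochberg adjustment over 11857 rows and a threshold of 0.05. The smallest two-sided p of an exact test with 3 mice a group is 0.1. Coordinates are from GENCODE M21 (GRCm38), by symbol.

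The genes and lists were chosen with earlier results of these data known. Values per library are given for genes that passed with or without replicate 6, and for the 2 largest changes and the most abundant gene of each role. In the wider list the 2 largest changes of each of 6 sublists were named. Alternatives were another pseudocount, no filter, 3 scalings, no trend, array weights and each replicate left out.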

Additional observations from a re-analysis of the deposited data

How the results depend on the processing

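Counts of the 44 genes past the threshold depended on replicate 6. Leaving out each replicate in turn gave 0 to 15 higher and 0 lower among the 44, 0 to 25 higher in the wider list, and 0 to 832 higher and 0 to 106 lower among all genes, against 13 and 5 with all libraries. Unadjusted higher calls among the 44 ran from 19 to 31, and their median change from 0.42 to 0.65. Leaving out replicate 6 with the filter kept over all 6 libraries, chosen after seeing the data, gave 15 and 28 higher, 962 higher and 114 lower among all genes, and a median of 0.42. Array weights, whose estimation did not converge and which gave replicate 6 a weight of 0.133, called 31 of the 44 higher, 78 wider genes higher and 1 lower, and 3523 higher and 369 lower among all genes, with 1 of the 44 lower at an unadjusted p under 0.05. A pseudocount of 0.1 called 29 genes higher in all, and no filter 3, with a median difference to all genes of 0.42 instead of 0.29. Median-of-ratios, quantile and top-50 scaling (total without the 50 most abundant rows) called 10, 13 and 10 genes lower in all. Under them unadjusted higher calls among the 44 were 16, 15 and 15 with 1 lower each, and the median change to 0.26, 0.20 and 0.20. In that order, the change turned negative in Xbp1 (-0.11, -0.14, -0.17), Atf6 (-0.13, -0.15, -0.18), Atf4 (-0.12, -0.17, -0.17), Sel1l (-0.12, -0.16, -0.18), Edem1 (-0.23, -0.25, -0.28), Ssr4 (-0.0172, -0.0268, -0.0749) and Asns (-0.30, -0.33, -0.36), and under the last 2 in Dnajc3 (-0.00996, -0.0347) and Srp9 (-0.0359, -0.0347). Array weights turned Atf4 to -0.0298, Pdia2 to 0.0599 and Chac1 to 0.38, and without replicate 6 over the full filter Pdia2 was at 0.17 and Chac1 at 0.63. Over single replicates left out, Ern1 ran from -0.20 to 0.10, Pdia2 from -1.06 to 0.17, Herpud1 from -0.22 to 0.00955, Trib3 from -0.33 to 0.0793, Asns from -0.10 to 0.13 and Chac1 from -1.07 to 0.63. Apart from the fewer libraries and rows these settings hold, the cause was not tested. No paired analysis was possible because the groups share no replicate number. With 3 mice per group and unknown depth, a difference that missed the threshold is not shown to be absent.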
